A study of Homo sapiens with 4 samples.

Results

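The BEX (brain expressed X-linked) family comprises BEX1, BEX2, BEX3, BEX4 and BEX5, and its expression was examined in 4 cultures of HCT116, a human colorectal carcinoma cell line. MG cells are a subpopulation of HCT116 obtained by repeated migration through transwell inserts, and non-MG cells are the subpopulation that did not migrate. Each was treated for 48 h with vehicle or with 5-azacytidine at 5 µM, a nucleoside analogue that blocks DNA methyltransferases. RNA of each of the 4 conditions was measured on 1 one-colour Agilent array, so every difference below compares 2 arrays, has no replicate check and carries no p-value. Both subpopulations derive from the same cell line, so no value speaks for other lines. The family was chosen because BEX5 had been seen to be lower in MG cells and higher after 5-azacytidine in those cells, with all 4 arrays above background. Those values are therefore given as a description only. All 5 genes had a probe, among 40909 genes or unnamed transcripts on the array, and each gene had 1 probe with 1 spot per array. The scanner software called 3 of the 5 members (BEX2, BEX3 and BEX5) well above background on all 4 arrays, as it did for 15708 of the 40909 genes and transcripts. BEX1 and BEX4 were well above background on no array.

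BEX genes encode small, largely disordered proteins that lie together on the long arm of the X chromosome, next to the related TCEAL genes. They are known for high expression in brain and for roles in signalling through the p75 neurotrophin receptor, in the cell cycle and in apoptosis. BEX1 and BEX2 are also known as genes silenced by promoter methylation in glioma. 5-Azacytidine is incorporated into nucleic acids of dividing cells, traps DNA methyltransferases and lowers methylation over the following divisions. Methylation itself was not measured on these arrays.

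The sequence before the transcription start is shown for BEX5, the detected member whose array values differed most, and for BEX2 and BEX4, a pair with closely similar promoters of which only BEX2 was detected. They are the 250 bases before an annotated start, from RefSeq on build GRCh38.p14, written 5′ to 3′ on the gene's strand with each CpG, the site DNA methyltransferases act on, in capitals. BEX5 lies on the minus strand, at chrX:102155978-102156227. BEX2 also lies on the minus strand, at chrX:103310991-103311240, and BEX4 on the plus strand, at chrX:103214858-103215107.
BEX5: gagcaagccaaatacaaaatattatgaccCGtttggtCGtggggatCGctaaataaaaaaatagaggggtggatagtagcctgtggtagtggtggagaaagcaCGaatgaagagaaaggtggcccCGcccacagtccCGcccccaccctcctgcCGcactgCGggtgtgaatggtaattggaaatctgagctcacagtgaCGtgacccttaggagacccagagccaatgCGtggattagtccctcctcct
BEX2: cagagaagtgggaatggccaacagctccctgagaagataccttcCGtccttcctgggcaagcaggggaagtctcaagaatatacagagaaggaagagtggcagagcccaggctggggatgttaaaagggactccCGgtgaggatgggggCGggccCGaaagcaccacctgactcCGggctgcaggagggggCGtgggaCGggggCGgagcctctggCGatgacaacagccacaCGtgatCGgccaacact
BEX4: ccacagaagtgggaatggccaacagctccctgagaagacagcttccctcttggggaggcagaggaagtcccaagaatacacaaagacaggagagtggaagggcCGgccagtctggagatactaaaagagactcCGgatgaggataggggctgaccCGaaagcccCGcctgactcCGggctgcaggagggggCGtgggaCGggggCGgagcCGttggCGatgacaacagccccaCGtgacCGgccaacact
These 250 bases held 10 CpG for BEX5, 11 for BEX2 and 12 for BEX4.

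In full windows of 250 bases before and 50 bases after each annotated start, BEX5 had 14 CpG at the start shown and 13 at its other start. The median over 35116 such windows of 27305 genes was 14, with quartiles of 4 and 28, so BEX5 lay at the middle of all genes. The share of windows with at least as many CpG as BEX5 was 50.3% for 14 and 51.7% for 13. BEX2 had 17 CpG, BEX4 had 16 and 17 at its 2 starts, and BEX1 had 25. The 3 annotated starts of BEX3 ranged from 7 to 32. The members thus spanned the range from below the median to above the upper quartile. Among members, the windows of BEX1 and of one BEX3 start were identical at 237 of 275 aligned bases (86.2%), and those of BEX2 and BEX4 at 254 of 296 (85.8%) for the start shown. BEX5 shared 57.0% to 62.8% with the windows of the other members (14 pairs). The 12 pairs among the others, leaving out BEX1 with BEX3 and BEX2 with BEX4, shared 57.7% to 65.3%. The letters CACGTG, a palindrome that reads the same on both strands and holds a CpG, were found in 7.26% of all windows. They were present once in the windows of BEX1, BEX2, BEX4 and 1 start of BEX3, and in neither window of BEX5. A match is a stretch of letters and not a shown binding site.

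**Figure D1:**
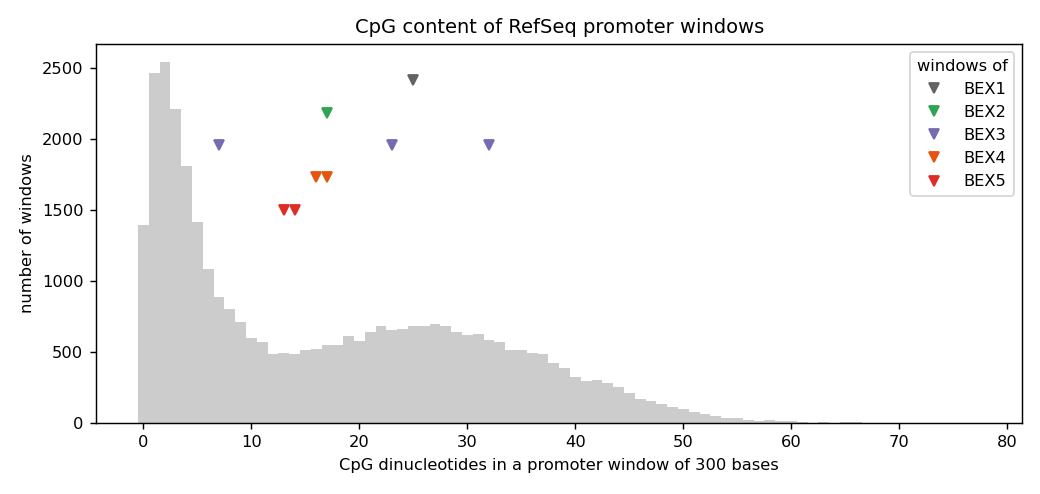
Number of CpG in 300-base promoter windows (x axis) against the number of RefSeq windows with that count (y axis, grey bars), with triangles at the counts of the windows of the 5 BEX genes, whose height has no meaning. The BEX5 windows, with 13 and 14 CpG, sit at the median of 14, and the BEX3 windows spread from 7 to 32.

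Intensities below are background-corrected and linear, as the scanner software gave them, with that software's own error estimate for a spot after ±. The lowest intensity called well above background ranged from 9.95 to 11.8 over the 4 arrays, and 21384 to 21882 of 50594 probes passed that call on each array. For comparisons between arrays, the log2 intensity was taken relative to the 75th percentile of its array (an intensity of 75.2 to 98.7). No probe was saturated. A level is never compared between genes here, because each probe binds with its own strength. Since each array holds RNA of a whole culture, fewer cells expressing a gene and less RNA per cell cannot be told apart. The epithelial origin of HCT116 was seen in 6 of 7 epithelial markers that were well above background on all 4 arrays, VIL1 being on none. Of 6 neuronal markers, RBFOX3, SNAP25 and TUBB3 were detected on all 4 arrays and SYP, ELAVL4 and STMN2 on none. Of 4 fibroblast markers COL1A1 alone was detected on all 4 arrays, with COL3A1, DCN and LUM on none. Of 4 leukocyte markers CD14 alone was detected on all 4, with PTPRC and CD3E on none.

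BEX5, the least studied member of the family, gave an intensity of 47.4 ± 5.26 in vehicle-treated non-MG cells and 36.7 ± 4.26 in non-MG cells given 5-azacytidine. In MG cells it was 14.4 ± 2.92 with vehicle and 30.8 ± 4.03 with 5-azacytidine. The vehicle-treated MG culture was thus the low one of the 4, close to the limit of 11.5 for a call above background on that array, and the non-MG culture with vehicle was the highest. Relative to the 75th percentile of the array, the log2 levels in the same order were -0.88, -1.03, -2.77 and -1.65.

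BEX3, also called NADE, binds the p75 neurotrophin receptor and takes part in cell death through it. Its intensity was 9162 ± 916 in non-MG cells with vehicle and 6640 ± 664 with 5-azacytidine. MG cells gave 11965 ± 1197 with vehicle and 10523 ± 1052 with the drug. Both MG cultures were above both non-MG cultures on the intensity scale. The scaled log2 levels were 6.72 and 6.46 in non-MG cells and 6.92 and 6.77 in MG cells. Drug-treated MG cells were then 0.05 above vehicle-treated non-MG cells, within the spot error of 0.07 explained below.

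BEX2, a regulator of apoptosis and the cell cycle that also takes part in LMO2-containing transcription complexes, gave 3303 ± 330 in non-MG cells with vehicle and 2423 ± 242 with 5-azacytidine. In MG cells it gave 3004 ± 300 and 2490 ± 249. Both drug-treated cultures were below both vehicle cultures on the intensity scale. After scaling, the log2 levels were 5.25 and 5.01 in non-MG cells and 4.93 and 4.69 in MG cells, so that the drug-treated non-MG culture came above the vehicle-treated MG culture by a difference of the size of the spot error. Over the 4 cultures, the scaled log2 level spanned 0.56 for BEX2, 0.46 for BEX3 and 1.90 for BEX5.

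BEX1, which interacts with the p75 neurotrophin receptor and is linked to neuronal differentiation, had no level well above background. Its intensity was 2.10 ± 2.10 and 2.42 ± 2.09 in non-MG cells with vehicle and 5-azacytidine, and 2.41 ± 2.41 and 10.3 ± 2.63 in MG cells. The MG culture given 5-azacytidine was the highest, and there BEX1 still lay under the limit of 11.8 of that array. The software flagged BEX1 as positive and significant, a weaker call than well above background, on the 2 arrays of drug-treated cells and on neither vehicle array. No fold is given, because both sides of every comparison are below the limit. BEX4, a microtubule-associated member that influences tubulin acetylation, stayed between 2.13 and 2.48 on all 4 arrays with errors of the same size. It was not measurable in any of the cultures.

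**Figure D2:**
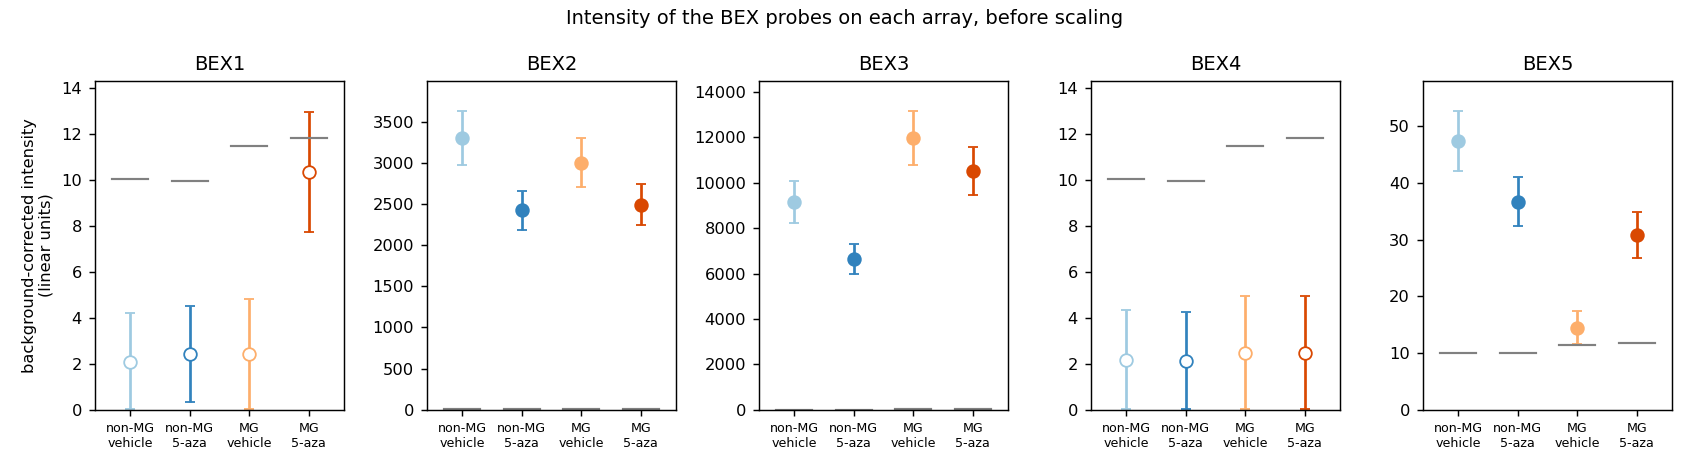
Background-corrected intensity (y axis, linear, with its own scale for each probe) of the 5 BEX probes in the 4 cultures (x axis). Bars are the scanner software's error, grey lines the lowest intensity called well above background on each array, and open points spots not well above background. BEX2 and BEX3 lie far above the limit in every culture, BEX5 drops to 14.4 in vehicle-treated MG cells, and BEX1 and BEX4 lie below the limit throughout.

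Because no culture was repeated, the only error available was that between spots of a single array. It was estimated from 902 probes spotted 10 times, as the median SD between spots in the same range of log2 intensity, and was 0.58 for log2 intensities of 2 to 3, 0.20 for 4 to 5 and 0.05 above 10. Combined over the 2 arrays of a ratio, it is called the spot error below. It holds no difference between cultures, so a ratio beyond it differs between these arrays and not necessarily between conditions. A gene is counted as higher or lower where its ratio passed 1.5-fold (0.585 on the log2 scale). The 4 comparisons share arrays and are not independent of one another.

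BEX5 was 3.73-fold lower in MG than in non-MG cells under vehicle, a log2 ratio of -1.90 with a spot error of 0.35. Of the 15708 detected genes and transcripts, 12 had a lower ratio. Under normexp background correction BEX5 was at -0.57, and 328 genes were lower past 1.5-fold. BEX2 had a log2 ratio of -0.32 and BEX3 of 0.20, each with a spot error of 0.07, and the software's error for both ratios was 0.20. Of the 3 detected members 1 was therefore lower past 1.5-fold and none higher, where 8.24% of all detected genes were lower and 5.68% were higher. BEX5 was chosen on this comparison, so nothing is read from its count or its rank. The members' median was -0.32 and that of all genes -0.01. The next member below BEX5 in size of ratio, BEX2, was well inside the threshold.

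Between MG and non-MG cells that both received 5-azacytidine, BEX5 was 1.53-fold lower, with a log2 ratio of -0.61 and a spot error of 0.24. This was just past the threshold, with 1031 genes lower still, and it fell short of the threshold at -0.36 when arrays were centred on their medians, at -0.56 after quantile normalization and at -0.28 under normexp background correction. The ratio was -0.32 for BEX2 and 0.31 for BEX3, against spot errors of 0.07. Of the 3 detected members, 1 was lower and none was higher, beside 7.33% and 5.74% of all detected genes. The members' median was -0.32 and that of all genes 0.02.

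In MG cells, BEX5 was 2.18-fold higher with 5-azacytidine than with vehicle. Its log2 ratio was 1.13 with a spot error of 0.38, and 115 of the detected genes had a higher one. BEX2 and BEX3 had ratios of -0.24 and -0.15, each larger than the spot error of 0.07, while against the software's error of 0.20 BEX2 was slightly beyond it and BEX3 within it. The count was 1 of 3 members higher and none lower, beside 3.02% of all detected genes higher and 2.1% lower. This comparison also chose BEX5, so nothing is read from its count or its rank here either. The medians were -0.15 for the members and -0.02 for all genes. Under normexp background correction with an offset of 50, which pulls dim probes together, the BEX5 ratio was 0.29 here and -0.57 in the comparison of vehicle-treated MG with non-MG cells, both short of the threshold.

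In non-MG cells, 5-azacytidine left no member past 1.5-fold, where 1.9% of all detected genes were higher and 1.68% were lower. BEX5 had a log2 ratio of -0.16, smaller than its spot error of 0.18. BEX2 was at -0.24 and BEX3 at -0.25, both beyond the spot error of 0.07, and all genes had a median of -0.04. BEX2 and BEX3 thus had slightly lower values with the drug in both subpopulations. The sign of the BEX2 and BEX3 ratios in all 4 comparisons was the same under every background correction and scaling tried.

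The difference between the drug's log2 ratio in MG and in non-MG cells was 1.29 for BEX5, with a spot error of 0.42. It was 0.00 for BEX2 and 0.10 for BEX3, each with a spot error of 0.10, so that BEX2 was far inside this error and BEX3 at it. Under normexp the difference was 0.29 for BEX5, 0.10 for BEX2 and 0.23 for BEX3. BEX5 was chosen on its ratio in MG cells, so nothing is read from its difference. BEX5 in drug-treated MG cells remained below vehicle-treated non-MG cells, with a log2 ratio of -0.77 and a spot error of 0.24. The same ratio was -0.56 for BEX2 and 0.05 for BEX3, with spot errors of 0.07.

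**Figure D3:**
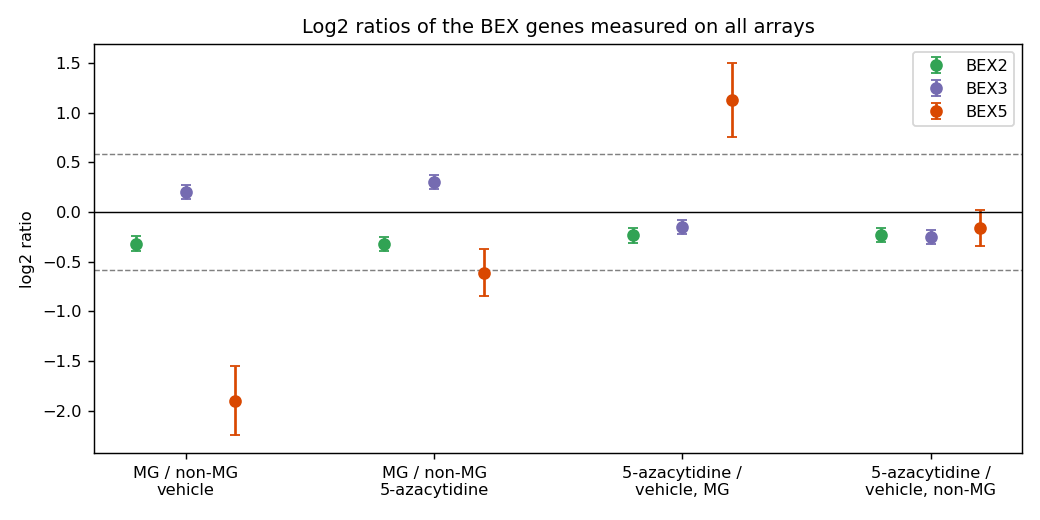
Log2 ratio (y axis) of BEX2, BEX3 and BEX5 in the 4 comparisons, with bars for the spot error and dashed lines at 1.5-fold in either direction. BEX5 lies at -1.90, -0.61, 1.13 and -0.16, and every BEX2 and BEX3 ratio lies between the dashed lines.

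The TCEAL genes, relatives of BEX named for similarity to a transcription elongation factor, lie among the BEX genes on the X chromosome. Of 9 listed, 8 had a probe and 3 (TCEAL4, TCEAL8 and TCEAL9) were detected on all 4 arrays, 4 on some arrays and 1 on none. None of the 3 passed 1.5-fold in any comparison, and their medians of 0.04, -0.06, -0.13 and 0.01 lay near those of all genes. TCEAL4 came closest, at 0.40 with 5-azacytidine in MG cells and -0.32 between the vehicle-treated subpopulations. Genes detected on some arrays only have a bound instead of a ratio, set against the lowest signal above background on the dim array; those given here were picked with their values in view. One TCEAL6 probe was at 5.92 and 29.8 in MG cells with vehicle and drug, at least 2.66-fold higher with the drug, and at 7.20 and 17.6 in non-MG cells, at least 2.04-fold higher. The other TCEAL6 probe was at least 1.75-fold higher with the drug in non-MG cells and was above background on both MG arrays. There it read 17.8 with vehicle and 23.5 with the drug, a log2 ratio of 0.43 that fell short of 1.5-fold. The 2 probes thus differed in MG cells. Under vehicle this other probe was at least 1.57-fold higher in MG than in non-MG cells. TCEAL5 was at least 1.91-fold higher with the drug in MG cells, the sole array where it was detected. For TCEAL7 the bound was 1.22-fold in MG and 1.29-fold in non-MG cells. Its signals with the drug, 13.7 and 11.2, lay near the limit. The median SD between spots was 0.32 for log2 intensities of 3 to 4, and the bounds carry no spot error.

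The ARMCX and GPRASP genes form another X-linked family of the same region, which holds outer-mitochondrial-membrane proteins and sorting proteins of G protein-coupled receptors. All 9 had a probe, 4 were detected on all 4 arrays, 3 on some and 2 on none. None of the 4 passed 1.5-fold between MG and non-MG cells with either treatment, although ARMCX6 passed under 5-azacytidine with median centring, at 0.60 against 0.34. GPRASP2, which takes part in receptor sorting, was higher with 5-azacytidine in MG cells, with a log2 ratio of 0.69 and a spot error of 0.28, against -0.03 in non-MG cells. Its intensities were 17.4 and 27.5 in MG cells and 20.7 and 17.5 in non-MG cells, so the drug-treated MG culture was highest. ARMCX3, a mitochondrial protein involved in mitochondrial transport in neurons, was higher with the drug in non-MG cells, at 0.67 with a spot error of 0.24, against 0.01 in MG cells. Its lowest unscaled intensity was 29.3 in vehicle-treated non-MG cells, and the other 3 cultures lay between 36.4 and 40.3. After scaling, the drug-treated non-MG culture was the highest. MG over non-MG cells was at 0.15 under vehicle, inside the spot error of 0.24, and at -0.51 under 5-azacytidine. Neither GPRASP2 nor ARMCX3 passed 1.5-fold under normexp, and ARMCX3 was at 0.57 in non-MG cells with median centring. ARMCX2, from its probe at 2.39 and 21.0 in MG cells and 2.10 and 18.9 in non-MG cells, was at least 1.87-fold and 2.18-fold higher with 5-azacytidine.

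Signalling around the p75 neurotrophin receptor, to which BEX3 and BEX1 bind, was described by 14 ligands, receptors, adaptors and kinases, of which 9 were detected on all 4 arrays. Among the ligands, NTF3 was detected on all arrays but that of drug-treated MG cells, where it read 11.3. It was at least 2.26-fold lower there than in MG cells with vehicle (27.3), and at least 1.52-fold lower than in drug-treated non-MG cells. BDNF, a neurotrophin that binds both p75 and TrkB, was higher in MG cells, with a log2 ratio of 0.60 under vehicle and 0.75 under 5-azacytidine and spot errors of 0.13. Its brighter probe read 211 and 119 in non-MG cells with vehicle and drug, and 359 and 241 in MG cells. On this unscaled intensity both MG cultures were above both non-MG cultures. After scaling, this probe was at 0.58 in MG over non-MG cells under vehicle and at -0.54 with the drug in MG cells. On this probe drug-treated MG and vehicle-treated non-MG cells thus lay close together. The dimmer probe, at 0.61 and -0.05 in the same comparisons, did not have them close. It read 24.3 in vehicle-treated non-MG cells and 39.6 in drug-treated MG cells.

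Among the receptors, NGFR, which is the p75 receptor itself, read 191 and 215 in non-MG cells and 145 and 202 in MG cells, vehicle before drug. It was lowest in vehicle-treated MG cells, at a log2 ratio of -0.59 to non-MG cells with a spot error of 0.11. This was at the threshold, and at -0.58 after quantile normalization and -0.39 with median centring it did not pass. With 5-azacytidine NGFR was at 0.52 in MG and 0.38 in non-MG cells, both short of 1.5-fold. The receptors NTRK2 and NTRK3 were on no array, and SORT1, the co-receptor of p75 for pro-neurotrophins, had ratios from -0.10 to 0.32.

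Among the adaptors and kinases IRAK1, a kinase that links receptors to TRAF6, was higher in MG cells at 0.81 under vehicle and 0.85 under drug, with spot errors of 0.09. Both of its probes had this direction, and the brighter read 215 and 233 in non-MG cells and 418 and 513 in MG cells. In all, 2 of the 9 were higher and 1 lower in MG cells under vehicle, 2 higher and none lower under 5-azacytidine, and none passed 1.5-fold with the drug in either subpopulation. Over all detected genes the shares were 5.68% higher and 8.24% lower under vehicle and 5.74% and 7.33% under 5-azacytidine, and with 9 genes nothing particular to the list is read from its counts. Under normexp none passed under vehicle and 1, IRAK1, passed under 5-azacytidine. The list's medians were 0.09, 0.05, -0.04 and 0.06. MAGED1, which binds p75, had ratios from -0.16 to 0.12. Of 7 further partners of BEX proteins, such as LMO2, LDB1 and SIRT2, 5 were detected on all 4 arrays and none passed 1.5-fold, although PLK1 passed in MG over non-MG cells under 5-azacytidine with median centring, at 0.64 against 0.38.

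**Figure D4:**
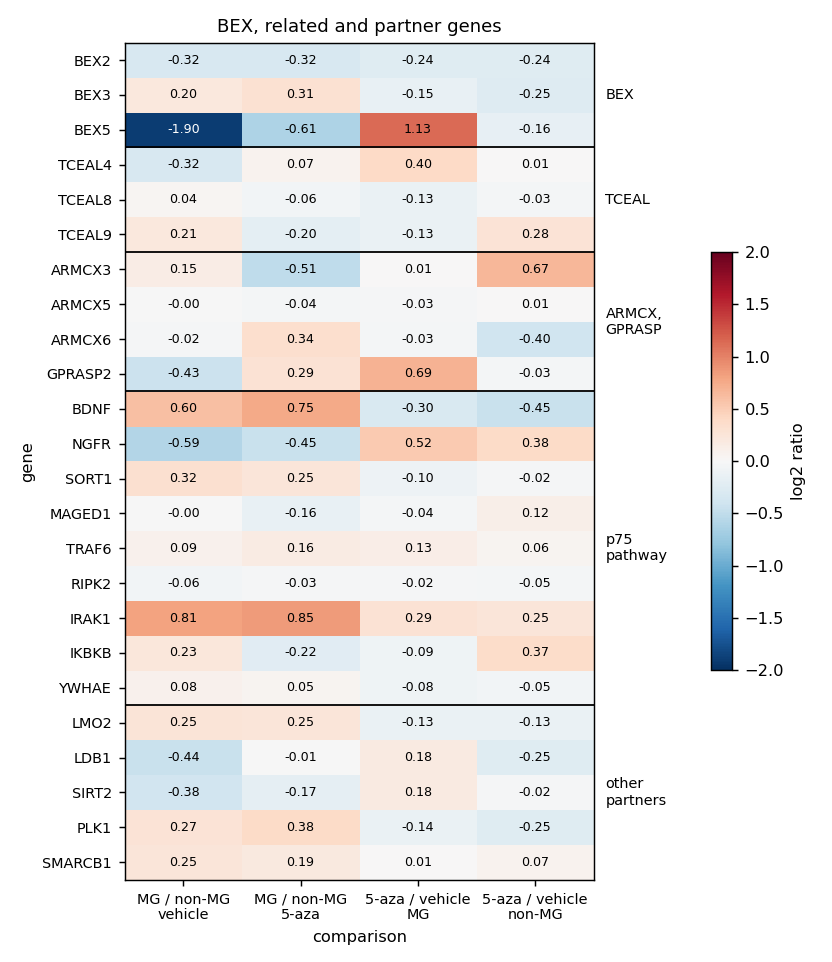
Log2 ratios of the detected genes of the TCEAL, ARMCX and GPRASP, p75 receptor and partner lists with the detected BEX genes (rows) in the 4 comparisons (columns), on a colour scale from lower to higher. BEX5 under vehicle, at -1.90, is the most extreme cell, and IRAK1 and BDNF are higher in MG cells in both columns that compare the subpopulations.

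Markers of neurons, where BEX genes are best known, were looked at beside BEX5. SNAP25, a synaptic protein, was at 0.61 with 5-azacytidine in MG cells and 0.45 in non-MG cells, with spot errors of 0.24 and 0.28. It was -0.35 in MG relative to non-MG cells under vehicle. The ratio in MG cells fell short of 1.5-fold at 0.19 under normexp, 0.57 with median centring and 0.56 after quantile normalization. RBFOX3, a neuronal splicing factor, was at 0.13 and -0.18 with the drug in MG and non-MG cells on its probe detected on all 4 arrays. Its other probe was above background in drug-treated non-MG cells alone, at 22.7 against 5.6 with vehicle. That probe read 4.27 and 11.3 in MG cells with vehicle and drug, so the probes of RBFOX3 differed. The median of the 3 detected neuronal markers was 0.24 with the drug in both subpopulations and -0.16 and -0.11 between MG and non-MG cells. Summed over all 7 neuronal probes, the intensity relative to the array's 75th percentile was 45.7 and 53.3 in non-MG cells with vehicle and drug and 42.2 and 49.6 in MG cells. TUBB3, a tubulin also made outside neurons, supplied 91.6% to 92.9% of each sum. The sum was thus higher with the drug in both subpopulations, while BEX5 was higher past 1.5-fold in MG cells and at -0.16 in non-MG cells. Some markers of other cell types also differed between the cultures, not always as BEX5 did. The monocyte marker CD14 read 17.1 and 27.1 in non-MG cells with vehicle and drug, and 13.5 and 26.3 in MG cells. Its log2 ratio was 1.002 with the drug in MG and 0.87 in non-MG cells, with spot errors of 0.38 and 0.28, and -0.53 in MG relative to non-MG cells under vehicle. LAPTM5, a lysosomal protein of blood cells, was detected in drug-treated MG cells alone, at 19.0, and read 2.69 in MG cells with vehicle and 7.95 and 9.37 in non-MG cells. The sum over the 8 leukocyte probes was 0.55 and 0.71 in non-MG cells and 0.41 and 0.72 in MG cells, vehicle before drug, while PTPRC and CD3E were detected on no array.

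COL1A1, a fibroblast collagen, was at -0.92 in MG relative to non-MG cells under vehicle, with a spot error of 0.15, and at 0.25 with the drug in MG cells. The sum over the 5 fibroblast probes was 1.19 and 1.11 in non-MG cells and 0.67 and 0.79 in MG cells, with COL3A1, DCN and LUM detected on no array. Of the 6 detected epithelial markers, CDH1, the cell adhesion protein E-cadherin, was at -0.66 between the vehicle-treated subpopulations, with a spot error of 0.09. The other 5 stayed within 1.5-fold in every comparison as averages over their probes. Of 3 KRT8 probes the dimmest was at 0.81 between the vehicle-treated subpopulations, and the others were at 0.16 and 0.03. With median centring CDX2 passed in MG over non-MG cells under 5-azacytidine, at 0.63 against 0.38. CD14 and COL1A1 fell short of 1.5-fold under normexp, and CDH1 did so there and with median centring. Every culture was of HCT116, so these markers describe that line and are not read as a share of other cell types. Their relation to the BEX5 values was not tested.

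Along the X chromosome, RefSeq placed 21 protein-coding genes from BEX5 to BEX3, of which 18 had a probe and 10 were detected on all 4 arrays. BEX5 was the sole one of the 10 lower past 1.5-fold in MG cells, under vehicle, the comparison it was chosen on, and under 5-azacytidine, where 8.24% and 7.33% of all detected genes were lower. With the drug in MG cells 3 of the 10 were higher, namely NXF3 at 0.91, GPRASP2 at 0.69 and BEX5, which was chosen on this comparison. Over all detected genes 3.02% were higher there. In non-MG cells NXF3, a member of a family of RNA export factors, was the sole one, at 0.83, beside 1.9% of all detected genes. BEX5 is flanked by TCEAL6 and TCP11X1. TCEAL6 is described above and TCP11X1 had no probe.

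Across all 15707 other detected genes and transcripts, those whose 4 levels were most like BEX5 were found by the Euclidean distance between log2 levels centred on each gene's mean over the 4 arrays. The median distance to BEX5 was 1.52. The nearest were PRAM1, an adaptor of myeloid cells, at 0.06, PDK1, a kinase of pyruvate dehydrogenase, at 0.31, PABPC3, a poly(A)-binding protein, at 0.34, TUBAL3, an alpha-tubulin-like protein, at 0.36 and BST2, also called tetherin, at 0.36. PRAM1 had log2 ratios of -1.91 and 1.16 where BEX5 had -1.90 and 1.13. The other 4 lay between -1.74 and -1.44 for the vehicle-treated MG cells relative to non-MG cells and between 0.69 and 1.21 for the drug in MG cells. With 4 points per gene, all but that of drug-treated non-MG cells entered the ratios that chose BEX5. This likeness is therefore a description.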

How the data were processed

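The conditions, taken from the sample labels, were measured on 4 one-colour Agilent SurePrint G3 arrays, all on 1 slide. Non-MG cells lay in slide row 1, MG cells in row 2, vehicle in column 3 and 5-azacytidine in column 4, so slide row cannot be told apart from cell type, nor slide column from treatment. The labels and the methods name different RNA extraction kits.

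The authors deposited Feature Extraction output (version 11.5.1.1 per the labels) with linear intensity values that were background-corrected but not normalized between arrays, and a table of log2 values centred on each probe's median over the 4 arrays. The normalization between arrays behind that table is not given in the sources used here. Its column medians were 0.0133, -0.0087, 0.0066 and -0.0115, and it was used as an alternative.

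Log2 intensity minus the array's 75th percentile over non-control probes was computed, control and outlier spots being left out (5 of 50599 probes lost). Of the probes, 59.3% were named through the RefSeq accession on GRCh38.p14, probes of a gene well above background on all 4 arrays were averaged, and the rest are given as bounds. Named genes were all members, listed genes past 1.5-fold in any comparison and the 5 profiles nearest to BEX5. TCEAL5, TCEAL6, TCEAL7, ARMCX2 and other genes with a bound were picked after seeing values, as were others named as examples. The members and lists were chosen with earlier results of these data known. With 1 array per condition, the number of arrays limits the precision, and no test was made. Counting was tested on simulated data. Python 3.11.15, numpy 2.4.6, pandas 2.3.3, R 4.3.3 and limma 3.58.1 were used. Some genes of the p75 receptor list are not reported here.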

Additional observations from a re-analysis of the deposited data

Results flagged for a closer look

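The BEX5 log2 ratios for 5-azacytidine over vehicle had opposite signs in MG and non-MG cells, at 1.13 and -0.16, a difference of 1.29. BEX5 was chosen on the ratio in MG cells, so nothing is read from this difference. The difference was not tested, as each condition had 1 array, and the ratio of -0.16 was smaller than its spot error of 0.18, so no change in non-MG cells is shown. Under normexp background correction the ratios were 0.29 and 0.00 and the difference was 0.29.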

How the results depend on the processing

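The log2 ratios of BEX2, BEX3 and BEX5 kept their sign in all 4 comparisons under the 6 alternatives run for ratios. Of these, the brightest probe and signals raised to the detection limit could not change a member's value. Each of these members had 1 probe, above the limit on every array. The authors' log2 values were nearly the same as the main ones. For the drug in non-MG cells, the sign of BEX5 under normexp rests on a ratio of -0.0012. The BEX5 ratio ran from -1.90 to -0.57 between vehicle-treated MG and non-MG cells, from -0.61 to -0.28 between the drug-treated ones, and for the drug from 0.29 to 1.13 in MG cells and from -0.26 to 0.00 in non-MG cells. Normexp with an offset of 50, run on the median spot intensity, gave -0.57, -0.28 and 0.29 in the first 3 of these and left 0 members past 1.5-fold in each. The deposited files used here hold no mean intensity. For MG over non-MG cells with 5-azacytidine, median centring gave -0.36 for BEX5, and median centring, quantile normalization and a 2-fold threshold each left 0 members. Without a filter on dim probes 2 members passed there and 2 for the drug in MG cells, BEX1 being added. Normexp adds its offset of 50 to every signal, more than BEX5 read on any array (14.4 to 47.4), which shrinks the ratios of dim probes. The cause of the other changes was not tested. The authors' log2 values moved no member past or short of 1.5-fold, and signals raised to the detection limit and the brightest probe per gene could not.

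Over all genes, in the order above, 2187, 2053, 804 and 562 passed 1.5-fold. The counts were 793, 903, 186 and 133 under normexp, 381, 335, 173 and 92 at 2-fold, 3945, 3947, 2648 and 2004 with the filter of the study, and 9861, 9911, 7907 and 7928 with none. Median centring gave 3402 for MG over non-MG cells with 5-azacytidine. The share of higher among these was 40.8%, 43.9%, 59.0% and 53.0%, against 58.6%, 79.8%, 73.7% and 41.4% under normexp and 78.0%, 88.3%, 51.0% and 26.9% with median centring, which put the median of all genes at 0.18, 0.27, -0.06 and -0.14. The slide could not be fitted as a block, since there was 1. No paired analysis was possible because each condition has 1 array. Signal over background limits BEX1 and BEX4, which have no ratio, and BEX5 in vehicle-treated MG cells, at 14.4 against a limit of 11.5.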
